A study of Rattus norvegicus with 83 samples.

Results

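Sox9 and 4 genes of the Notch pathway, the ligand gene Jag1, the receptor genes Notch1 and Notch2 and the target gene Hes1, were followed through 83 rat libraries. They are 5 of the 17483 gene symbols in the deposited count table and were taken by name. Sox9 and Jag1 had been picked because their counts were far lower in treated than in vehicle libraries at pup day 16, so their pup day 16 levels are described below with no test. Notch1, Notch2 and Hes1 were added by their place in the pathway and are tested throughout, and all 5 genes are tested at gestational day 21.

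Offspring of Sprague-Dawley dams gave the RNA. Gavage of the dams began on gestational day 7 and ended on pup day 22 per the labels' protocols, or on pup day 16 per the series' design text, and birth was expected on gestational day 23. The treated groups had dams on methimazole at 8 or 16 mg/kg per day (MMI8, MMI16) or amitrole at 25 or 50 mg/kg per day (Ami25, Ami50), and the control dams had corn oil vehicle. Methimazole and amitrole each block thyroid peroxidase, on which thyroid hormone synthesis depends, and amitrole also inhibits catalase. At pup day 16 (PD16) there were 10 MMI8, 10 MMI16, 11 Ami25, 12 Ami50 and 10 vehicle libraries, and at gestational day 21 (GD21) there were 6 of each. All groups share the outbred Crl:CD(SD) background, and the labels name no genotype, allele or transgene. Litters and animals are not identified, so p-values measure the spread between these libraries, some of which may share a litter.

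The assay was bulk RNA barcoding and sequencing, which counts the 3′ ends of polyadenylated RNA, and levels are given as CPM, a gene's count scaled to a library total of 1000000. Totals ranged from 202270 to 1186973 counts at PD16 (median 492083, so that 1 count is about 2.03 CPM) and from 495369 to 1627114 at GD21 (median 963356). The tissue label is testis, but defining markers went against it. The 7 adrenal cortex genes summed to 7610 to 58867 CPM and the 7 measured adrenal medulla genes to 686 to 2156 CPM in every library, while 3 germ cell genes had 27 counts in all and were at 0 in 62 libraries, and 4 Leydig cell genes had 51 counts and were at 0 in 49 libraries. The Sertoli cell list, which would be the textbook home of Sox9 in a testis, summed to 0 to 42.9 CPM. Embryonic globins took 17.1 ± 2.82% of globin counts in PD16 MMI8, 16.4 ± 4.28% in PD16 MMI16 and 14.8 ± 2.51% in PD16 vehicle (SD, n = 10 each), against 0.180 ± 0.0698% for the 11 PD16 Ami25 libraries and 0.142 ± 0.0798% for the 12 PD16 Ami50 libraries. The GD21 means were 0.0983% in MMI8, 0.198% in MMI16, 0.229% in Ami25 and 0.275% in Ami50, against 0.161% in vehicle. On this measure the PD16 amitrole groups lay among the GD21 groups, and the other PD16 groups did not. Of the 12 PD16 Ami50 libraries, 8 had less than 10 CPM of Eif2s3y, a gene on the Y chromosome, and the liver gene Alb reached 200 CPM or more in 10 GD21 and 5 PD16 libraries. Whether stage or sample origin differs from the label was not tested, and the groups are called by their labels.

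Notch signalling passes between touching cells. A ligand such as the Jagged1 protein on one cell binds a Notch receptor on its neighbour, the receptor is cut by ADAM proteases and then by gamma-secretase, and the freed intracellular domain joins the DNA-binding protein RBPJ to switch on targets such as Hes1, a transcriptional repressor. Jag1 and the Notch receptors are well known in blood vessels as well as in many progenitor cells. Sox9 is a transcription factor of the SOX family, known for its roles in cartilage, in Sertoli cells and in progenitors of several organs.

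Promoter sequences show where the 2 classes of factor named here could be read in DNA, and the pair below is printed because Jag1 is the ligand gene that moved with Sox9 and Hes1 is the gene through which receptor activity is usually read. RefSeq promoters of the GRCr8 build, 250 bases before to 50 after the gene start, were at hand for 4 of the 5 genes. The SOX core ACAAT (or ATTGT on the other strand), in capitals in the Jag1 sequence, was found 2 times there, starting 148 and 39 bases before the gene start (chr3:144894834-144895133, minus strand). The RBPJ core TGGGAA (or TTCCCA), in capitals in the Hes1 sequence, was found 2 times, starting 123 and 109 bases before the gene start (chr11:84212996-84213295, minus strand). Both strands were searched, and no window held both motifs, so they do not overlap here.
Jag1 promoter: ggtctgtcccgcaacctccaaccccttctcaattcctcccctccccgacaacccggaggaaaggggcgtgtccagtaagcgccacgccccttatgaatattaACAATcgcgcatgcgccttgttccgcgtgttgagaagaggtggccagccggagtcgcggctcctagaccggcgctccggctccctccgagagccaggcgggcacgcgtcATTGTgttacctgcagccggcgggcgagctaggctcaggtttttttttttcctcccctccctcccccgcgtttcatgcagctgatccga
Hes1 promoter: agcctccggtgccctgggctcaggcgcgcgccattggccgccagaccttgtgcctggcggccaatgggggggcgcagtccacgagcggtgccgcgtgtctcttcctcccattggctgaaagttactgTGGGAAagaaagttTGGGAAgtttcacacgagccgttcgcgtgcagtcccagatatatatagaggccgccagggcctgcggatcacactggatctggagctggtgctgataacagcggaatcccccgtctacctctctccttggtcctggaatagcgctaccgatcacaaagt
At least 1 SOX core was present in 33.7% of 33469 promoters of this length and 2 or more in 9.36%, and at least 1 RBPJ core was present in 25.7% and 2 or more in 3.85%. The Jag1 window held no RBPJ core, the Hes1 window no SOX core, and the Notch1 and Notch2 windows neither. A match is a run of letters and not a measured binding site.

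Sox9 was lower in all 4 treated PD16 groups than in PD16 vehicle, and its vehicle level at PD16 was itself the highest of the 10 groups. Its lowest, median and highest levels were 10.9, 24.2 and 45.7 CPM in MMI8, 2.53, 12.5 and 28.9 CPM in MMI16, 1.71, 10.9 and 18.9 CPM in Ami25 and 1.36, 4.42 and 12.7 CPM in Ami50, against 77.8, 129 and 227 CPM in vehicle. No treated library reached the lowest vehicle library. In raw counts this is 4 to 20 in MMI8, 1 to 11 in MMI16, 1 to 7 in Ami25 and 1 to 6 in Ami50, against 51 to 120 in vehicle, so the treated levels rest on few reads while the vehicle levels do not.

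The mean Sox9 level was 26.0 ± 11.3 CPM in MMI8, 13.4 ± 8.54 in MMI16, 9.60 ± 5.84 in Ami25 and 5.55 ± 3.85 in Ami50, against 139 ± 51.7 in vehicle (SD; n = 10, 10, 11, 12 and 10). The edgeR log2 fold change from vehicle was -2.45 (SE 0.21) for MMI8, -3.55 (SE 0.24) for MMI16, -3.95 (SE 0.24) for Ami25 and -4.60 (SE 0.26) for Ami50, which is 5.45-fold, 11.7-fold, 15.5-fold and 24.3-fold lower. Ordered by size among genes with a lower level, Sox9 stood 23rd in MMI8, 2nd in MMI16, 7th in Ami25 and 4th in Ami50 out of the 4906 genes in the fit, which describes how it was picked.

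Jag1 showed the same order of groups. Its lowest, median and highest levels were 19.0, 47.7 and 91.3 CPM in MMI8, 8.42, 26.1 and 36.6 CPM in MMI16, 13.3, 16.8 and 45.5 CPM in Ami25 and 4.34, 15.3 and 25.7 CPM in Ami50, against 132, 218 and 325 CPM in vehicle. Again no treated library reached the lowest vehicle library, and the counts were 7 to 44, 6 to 18, 6 to 16 and 2 to 16 in these treated groups, against 95 to 179 in vehicle. The log2 fold change was -2.15 (SE 0.18) for MMI8, -3.40 (SE 0.21) for MMI16, -3.43 (SE 0.20) for Ami25 and -3.95 (SE 0.21) for Ami50, or 4.43-fold, 10.6-fold, 10.8-fold and 15.5-fold lower. The 4 comparisons share their 10 vehicle libraries.

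**Figure D1:**
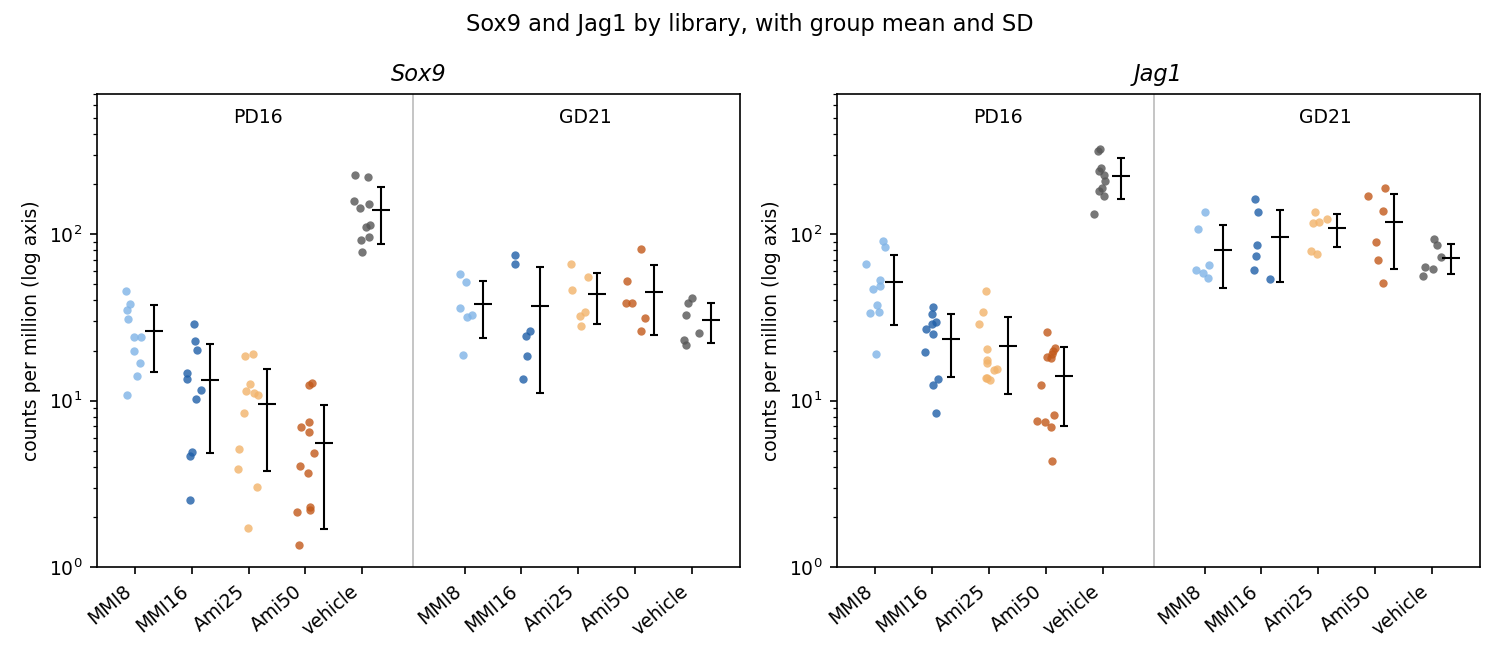
Sox9 (left) and Jag1 (right) in CPM on a log axis, 1 point per library, with the group mean and SD as bars beside the points, for the treated and vehicle groups at PD16 and GD21. All treated PD16 libraries lie below the lowest PD16 vehicle library, which has 77.8 CPM for Sox9 and 132 CPM for Jag1, and the GD21 groups overlap.

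How common such a pattern was at PD16 sets the scale for both genes. A library-by-library separation with every treated library lower was met by 3.06% of the 4906 genes in MMI8, 3.83% in MMI16, 8.74% in Ami25 and 8.76% in Ami50, and 301 genes (6.14%) were called lower in all 4 comparisons (edgeR quasi-likelihood test, Benjamini-Hochberg adjusted p under 0.05). Since Sox9 and Jag1 were picked from these comparisons, nothing is read from their belonging to these shares.

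Between the doses, Sox9 was 2.14-fold lower in MMI16 than in MMI8 (log2 fold change -1.10, SE 0.32) and Jag1 2.39-fold lower (-1.26, SE 0.25). For amitrole, Ami50 over Ami25 gave -0.65 (SE 0.42) for Sox9 and -0.53 (SE 0.29) for Jag1. Between compounds, Ami50 over MMI16 gave -1.05 (SE 0.41) for Sox9 and -0.55 (SE 0.30) for Jag1, at doses that differ. These values are descriptions of picked genes in the groups they were picked from.

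Across the 10 groups in order of mean, the PD16 vehicle group stood first for both genes, the 5 GD21 groups followed, and the 4 treated PD16 groups came last. Only 2 neighbours in that order were farther apart than the larger of their SDs, for Sox9 and for Jag1 alike: PD16 vehicle above GD21 Ami50, and PD16 MMI8 above PD16 MMI16. Relative to GD21, every PD16 Ami50 library had less Sox9 than any GD21 library, and every PD16 MMI16, Ami25 and Ami50 library had less Jag1 than any GD21 library. Such a separation from GD21 was shown by 3.23% of 6287 genes for MMI8, where neither gene had it, 3.26% for MMI16, 1.91% for Ami25 and 2.21% for Ami50.

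In vehicle animals the difference between the stages ran upwards for both genes. Sox9 averaged 139 ± 51.7 CPM in PD16 vehicle (n = 10) and 30.4 ± 8.30 CPM in GD21 vehicle (n = 6), a log2 difference of 2.06 (SE 0.25), and Jag1 averaged 224 ± 62.0 and 72.3 ± 14.7 CPM in the same groups, a log2 difference of 1.49 (SE 0.23). The lowest PD16 vehicle library exceeded the highest GD21 vehicle library for Sox9 (77.8 against 41.2 CPM) and for Jag1 (132 against 93.1 CPM). It did not exceed all treated GD21 libraries, of which Ami50 replicate 87 had 82.0 CPM of Sox9 and 189 CPM of Jag1. The share of all genes with such a separation was not computed, and 24.4% of 6287 genes were called higher in PD16 vehicle by edgeR. The vehicle totals differ in depth as well, and with raw counts compared without scaling the stage differences were 1.32 for Sox9 and 0.74 for Jag1, a change of over 1.5-fold in the value.

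Neither receptor gene showed a difference of that size at PD16. Notch2, the receptor gene that passed the filter on low counts, had lowest, median and highest levels of 5.39, 11.3 and 24.2 CPM in MMI8, 8.12, 15.4 and 39.6 CPM in MMI16, 7.74, 12.7 and 30.3 CPM in Ami25 and 8.15, 11.8 and 37.3 CPM in Ami50, against 7.32, 14.3 and 31.9 CPM in vehicle. All 5 groups overlap over most of their range. The log2 fold change was -0.26 (95% interval -0.81 to 0.28; edgeR adjusted p = 0.749) for MMI8, -0.07 (interval -0.57 to 0.43; adjusted p = 0.949) for MMI16, -0.03 (interval -0.52 to 0.46; adjusted p = 0.933) for Ami25 and -0.09 (interval -0.58 to 0.40; adjusted p = 0.779) for Ami50. Each interval stops far short of the fold changes of Sox9 and Jag1, while differences inside the intervals cannot be seen. With raw counts compared without scaling, the MMI8 value was -0.81 (adjusted p = 0.0194), and the other 3 stayed uncalled. For scale, 8.36%, 8.11%, 55.4% and 53.5% of the 4906 genes were called in either direction for MMI8, MMI16, Ami25 and Ami50.

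Between treated PD16 groups Notch1, Notch2 and Hes1 were not called either. For Notch2 the log2 fold change was 0.19 (95% interval -0.37 to 0.76; edgeR adjusted p = 0.841) in MMI16 over MMI8 and -0.06 (interval -0.56 to 0.44; adjusted p = 0.976) in Ami50 over Ami25. Across compounds, at doses that differ, it was 0.24 (interval -0.32 to 0.79; adjusted p = 0.510) in Ami25 over MMI8 and -0.02 (interval -0.54 to 0.49; adjusted p = 0.954) in Ami50 over MMI16. Of all 4906 genes, 2.08%, 0%, 48.6% and 47.5% were called in these 4 comparisons, and for Ami50 over Ami25 4.69% had an unadjusted p under 0.05 and DESeq2 called 1 gene. Without the filter, where 0.688%, 0.00695%, 19.1% and 19% of 14380 genes were called, Notch1 lay between -0.21 and 0.34, and Hes1 was at -1.11 in Ami50 over MMI16 (interval -2.17 to -0.05; p = 0.0416, adjusted p = 0.156).

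Notch1 was below the filter and was fitted without one, over 14380 genes at PD16. It had 1 to 5 counts in MMI8, 0 to 7 in MMI16, 0 to 8 in Ami25 and 0 to 11 in Ami50, against 3 to 12 in vehicle, and the groups overlap. Mean levels were 7.71 ± 4.50, 7.30 ± 5.46, 7.64 ± 8.19 and 7.55 ± 4.94 CPM in these treated groups, against 10.9 ± 3.75 CPM in vehicle. The log2 fold change was -0.51 (interval -1.17 to 0.14; adjusted p = 0.759) for MMI8, -0.72 (interval -1.37 to -0.08; adjusted p = 0.448) for MMI16, -0.62 (interval -1.24 to 0.01; adjusted p = 0.169) for Ami25 and -0.39 (interval -0.98 to 0.21; adjusted p = 0.427) for Ami50. All 4 values are below 0, in comparisons that share their vehicle libraries, and none was called, where 2.77%, 3.16%, 23.8% and 23.1% of genes were called without the filter.

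Hes1, the target, was close to the floor of the measurement. Its means at PD16 were 1.68 ± 2.51 CPM in MMI8, 3.16 ± 2.52 in MMI16, 1.71 ± 1.88 in Ami25 and 1.47 ± 1.41 in Ami50, against 2.00 ± 1.68 in vehicle, from 0 to 8 counts in a library. It was at 0 in 5 of 10 MMI8, 3 of 10 MMI16, 5 of 11 Ami25 and 4 of 12 Ami50 libraries, against 3 of 10 vehicle libraries. The fold changes lay between -0.39 and 0.72 (log2) with intervals as wide as -1.55 to 0.90 for MMI8 and adjusted p from 0.703 to 1. At this depth a difference in Hes1 within those intervals was not detectable.

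**Figure D2:**
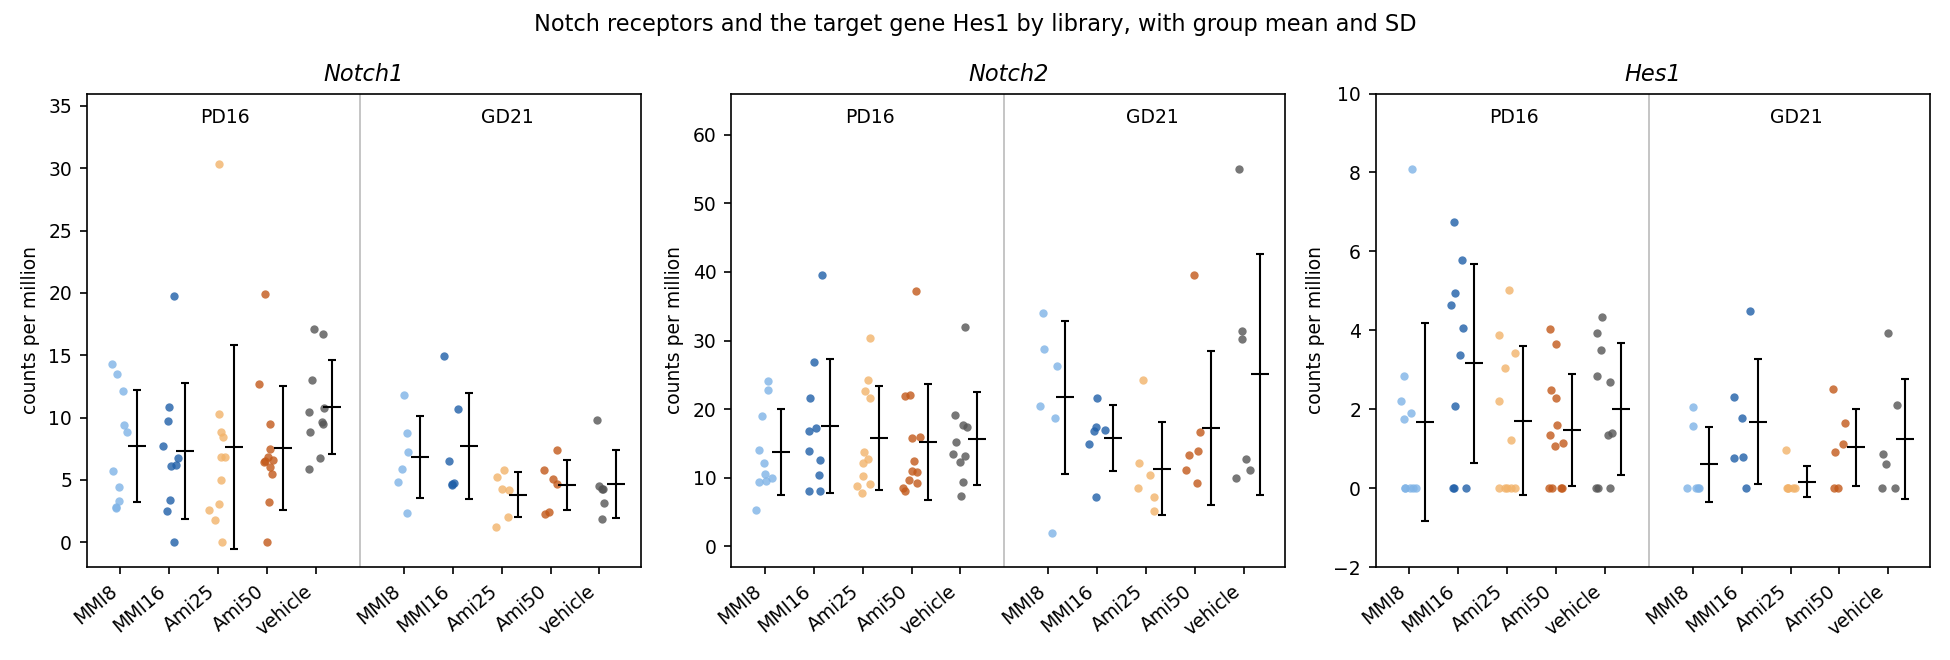
Notch1, Notch2 and Hes1 in CPM on linear axes, 1 point per library, with the group mean and SD as bars beside the points, for PD16 and GD21. The PD16 treated and vehicle libraries overlap for each gene, with means of 7.30 to 10.9 CPM for Notch1, 13.7 to 17.5 CPM for Notch2 and 1.47 to 3.16 CPM for Hes1.

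At GD21 no member was called in any treated group, and no gene at all was called by edgeR there in any of the 4 comparisons with vehicle (0% of 6236). At an unadjusted p under 0.05 edgeR listed 2.81% of genes for MMI8, 3.37% for MMI16, 9.28% (579 genes) for Ami25 and 6.91% (431 genes) for Ami50, and DESeq2 called 24 for Ami50. For Jag1 the lowest, median and highest levels were 51.1, 114 and 189 CPM in GD21 Ami50, against 55.9, 68.4 and 93.1 CPM in GD21 vehicle, with a log2 fold change of 0.70 (95% interval 0.13 to 1.27; p = 0.0230, adjusted p = 0.670). In GD21 Ami25 Jag1 averaged 108 ± 24.5 CPM, against 72.3 ± 14.7 in vehicle, a log2 fold change of 0.59 (interval 0.01 to 1.16; edgeR p = 0.0541, adjusted p = 0.541). The treated and vehicle groups overlap in both cases.

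Sox9 was at 38.0 ± 14.1 CPM in GD21 MMI8, 37.2 ± 26.2 in MMI16, 43.7 ± 14.8 in Ami25 and 44.9 ± 20.1 in Ami50, against 30.4 ± 8.30 in vehicle (SD, n = 6 each), with log2 fold changes of 0.31, 0.19, 0.54 and 0.57 and adjusted p from 0.593 to 1. The intervals for these values ran from -0.49 at the lowest to 1.24 at the highest, which keeps a fall of the size described at PD16 outside all of them. Notch2 had the largest difference among the receptors, 11.3 ± 6.76 CPM in GD21 Ami25 against 25.1 ± 17.5 CPM in GD21 vehicle (log2 fold change -1.07, interval -1.93 to -0.21; p = 0.0209, adjusted p = 0.504). Notch1 lay between -0.22 and 0.53 and Hes1 between -1.94 and 0.35, with adjusted p from 0.784 to 1.

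**Figure D3:**
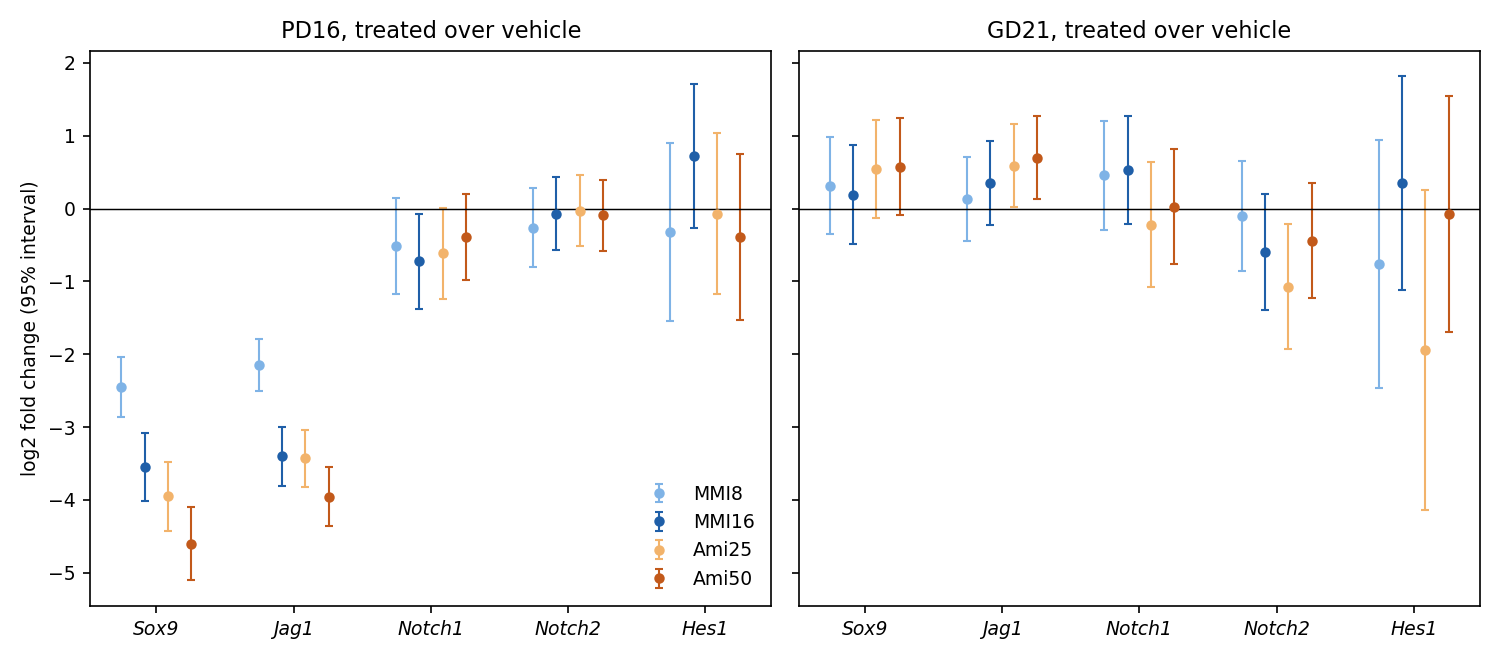
Log2 fold change of each gene in each treated group over vehicle, with 95% intervals, at PD16 (left) and GD21 (right). The PD16 intervals of Sox9 and Jag1 are descriptive, since these genes were picked there. At PD16 Sox9 and Jag1 lie between -2.15 and -4.60 while Notch1 and Notch2 lie between -0.72 and -0.03, and at GD21 the 5 genes lie between -1.94 and 0.70.

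The difference between the stages was tested for the genes that had not been picked. The effect of MMI16 at PD16 minus its effect at GD21 was -1.25 for Notch1 (p = 0.0141, adjusted p = 0.372), 0.48 for Notch2 (adjusted p = 0.90) and 0.37 for Hes1 (adjusted p = 1.00), and that of Ami50 was -0.46, 0.30 and -0.36 (adjusted p = 0.718, 0.644 and 1). None was called, against 5.22% of 6287 genes for MMI16 and 32.8% for Ami50 (2.03% and 12.8% of 15034 genes without the filter, the fit behind the Notch1 and Hes1 values). The same differences for Sox9 and Jag1, given as description, were -3.74 and -3.76 for MMI16 and -5.23 and -4.68 for Ami50.

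Between the vehicle groups of the stages the receptors moved in opposite directions, each on few libraries. Notch1 averaged 10.9 ± 3.75 CPM in PD16 vehicle and 4.66 ± 2.72 CPM in GD21 vehicle, a log2 difference of 1.02 (interval 0.36 to 1.68; adjusted p = 0.0181, without the filter, where 20.9% of 15034 genes were called). Notch2 averaged 15.7 ± 6.79 CPM in PD16 vehicle and 25.1 ± 17.5 CPM in GD21 vehicle, a log2 difference of -0.78 (interval -1.34 to -0.21; adjusted p = 0.0209, where 46.5% of 6287 genes were called). The call for Notch1 was lost without GD21 vehicle replicate 61 (adjusted p = 0.0855), without PD16 vehicle replicate 58 (0.0517) or with raw counts (0.402), and that for Notch2 without GD21 vehicle replicate 41 (0.0573), without replicate 62 (log2 difference -0.49, adjusted p = 0.186), without libraries whose Alb reached 200 CPM (0.0547) or with DESeq2 (0.0502). With raw counts the Notch2 difference was -1.53.

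The 6 GD21 vehicle libraries fell on both sides of the PD16 vehicle median of 14.3 CPM for Notch2. Notch2 stood at 31.3, 30.3 and 55.0 CPM in replicates 41, 61 and 62 and at 12.7, 9.96 and 11.2 CPM in replicates 42, 43 and 44. Alb was at 22.1, 17.4 and 1929 CPM in the first 3 of these and at 431, 25.3 and 5319 CPM in the other 3, and the library highest in Notch2, replicate 62, was among those with high Alb. In GD21 MMI8 and Ami25 the library highest in Notch2 also had high Alb (34.1 and 24.2 CPM of Notch2, with 10976 and 1843 CPM of Alb), while in MMI16 and Ami50 it did not (21.7 and 39.5 CPM, with 31.0 and 17.3 CPM of Alb). The part of liver transcripts in the Notch2 levels was not tested. Over all GD21 libraries the median Notch2 level was 16.8 CPM in the 10 libraries where Alb reached 200 CPM and 12.7 CPM in the other 20.

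Other pathway genes came from a list of 53 (the 5 genes above left out), of which 48 had a row in the counts and 11 had enough counts to be fitted at PD16. In MMI16 1 of these 11 was called lower and 0 higher, and in Ami50 4 were lower and 3 higher, with median log2 fold changes of 0.01 and -0.11 over the 11 genes, against 0.07 and 0.02 over all genes tested. These counts are to be read against backgrounds of 7.26% of all tested genes lower and 0.856% higher for MMI16, and 26.5% lower and 27.1% higher for Ami50. Among ligands, only Dlk1, a non-canonical ligand gene, passed, and it averaged 121 ± 24.0 CPM in Ami50 and 181 ± 42.7 CPM in vehicle (log2 fold change -0.51, adjusted p = 0.00725). The canonical ligand genes Dll1, Dll3 and Dll4 had group means of at most 4.11 CPM and Jag2 had a count of 0 in all libraries, and the receptor genes Notch3 and Notch4 reached at most 1.93 CPM.

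The 3 genes called higher in Ami50 encode parts of gamma-secretase. As 3 of 11 they are a share close to the 27.1% of all genes called higher, and nothing is read from it about the complex. Aph1b averaged 69.9 ± 9.74 CPM in Ami50 and 28.7 ± 5.38 CPM in vehicle (log2 fold change 1.34, adjusted p = 1.53e-13), Psenen 435 ± 54.5 and 272 ± 47.7 CPM in the same groups (0.76, adjusted p = 3.64e-12) and Ncstn 83.7 ± 25.6 and 62.3 ± 22.0 CPM (0.49, adjusted p = 0.0170). None of the 3 was called in MMI16, where their log2 fold changes were 0.01, 0.06 and 0.05. The GD21 vehicle means of Aph1b and Psenen, 57.6 ± 10.4 and 400 ± 24.9 CPM, lay nearer to PD16 Ami50 than to PD16 vehicle. Poglut1, which adds glucose to the receptor's extracellular repeats, was lower in Ami50 (25.0 ± 9.34 against 45.9 ± 11.0 CPM, log2 fold change -0.85, adjusted p = 5.80e-05), and Adam17, a protease that can cut the receptor, was at 26.6 ± 12.7 CPM in Ami50 and 28.9 ± 6.71 CPM in vehicle (-0.11, adjusted p = 0.675).

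Crebbp, a histone acetyltransferase recruited to the Notch transcription complex and to many others, was the list's gene called lower in both compounds. It averaged 68.9 ± 23.5 CPM in MMI16 and 49.4 ± 16.2 CPM in Ami50, against 269 ± 122 CPM in vehicle, with log2 fold changes of -2.05 (adjusted p = 2.22e-14) and -2.36 (adjusted p = 1.45e-17). Among the target genes 3 passed. The cyclin gene Ccnd1 was lower in Ami50 (46.1 ± 12.5 against 87.1 ± 28.4 CPM in vehicle, log2 fold change -0.80, adjusted p = 1.14e-05) and was at 97.5 ± 25.5 CPM in MMI16 (0.10, adjusted p = 0.847). Hes6, a relative of Hes1 that counteracts it, was at 134 ± 56.6 CPM in Ami50 and 110 ± 45.6 CPM in vehicle (0.48, adjusted p = 0.0771), and Myc at 20.7 ± 10.5 and 28.9 ± 8.61 CPM (-0.48, adjusted p = 0.0587). The further targets Heyl, Hey2 and Nrarp had group means of at most 6.33, 3.07 and 2.39 CPM, and Hes5 had a count of 0. For the listed genes called lower in Ami50, GD21 vehicle means were 18.8 CPM (Poglut1), 116 CPM (Dlk1), 48.5 CPM (Ccnd1) and 152 CPM (Crebbp). Those of Poglut1, Dlk1 and Ccnd1 lay nearer to PD16 Ami50 than to PD16 vehicle. That of Crebbp lay well apart from both groups and between them, slightly nearer to Ami50 in CPM. Whether the Ami50 differences go with treatment, stage or sample origin was not tested.

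Of the other SOX genes 12 were listed and 1 passed the filter. Sox4, a factor of many progenitor cells, averaged 15.0 ± 5.37 CPM in Ami50 and 38.7 ± 22.7 CPM in vehicle (log2 fold change -1.32, adjusted p = 1.03e-05), and 28.4 ± 17.1 CPM in MMI16 (-0.66, adjusted p = 0.0904). Of 12 cartilage matrix genes and 12 genes of glia and neural crest progenitors, 11 each were measured and 0 had enough counts for the PD16 fit. Sox10 and Sox8, which act beside Sox9 in neural crest and glia, had group means of at most 2.72 and 1.78 CPM, and the cartilage collagen gene Col2a1, a classic Sox9 target, at most 0.859 CPM. The 5 measured markers of sustentacular or Schwann glia summed to a median of 19.4 CPM in PD16 Ami50 and 12.8 CPM in MMI16, against 11.7 CPM in vehicle. These sums rest on 131, 73 and 75 counts over all libraries of the 3 groups, and their ranges overlap. At such counts it cannot be read whether the list ran with Sox9.

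Marker lists of several cell types differed between the same groups. The 7 Sertoli genes, a list without Sox9, summed to medians of 11.9 CPM in PD16 MMI8, 16.6 in MMI16, 8.88 in Ami25 and 6.91 in Ami50, against 27.4 CPM in PD16 vehicle, and the ranges overlap (0 to 19.9 CPM in Ami50 and 13.5 to 32.3 CPM in vehicle). The 7 adrenal cortex genes had median sums of 18842 CPM in MMI8, 18397 in MMI16, 38697 in Ami25 and 41910 in Ami50, against 14655 CPM in vehicle. Adult globins summed to medians of 32437, 34725, 90533 and 87127 CPM in these treated groups, against 34539 CPM in vehicle. The part of these lists in the levels of Sox9 and Jag1 was not tested.

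Endothelial markers were lower in every treated PD16 library than in any vehicle library when summed. How often a sum of 5 genes separates in this way was not computed, so nothing is read from the separation. All 5 listed genes were in the table, and they summed to 152 to 263 CPM in PD16 MMI8, 127 to 272 in MMI16, 130 to 265 in Ami25 and 112 to 257 in Ami50, against 415 to 642 in PD16 vehicle. The sum was carried by Kdr, at 98.5 ± 21.5 CPM in Ami50 and 286 ± 35.6 CPM in vehicle, and Pecam1, at 38.5 ± 12.0 and 200 ± 49.2 CPM. The other 3 had means in Ami50 and vehicle of 16.5 ± 5.62 and 19.2 ± 6.58 CPM (Tek), 14.5 ± 8.99 and 14.4 ± 6.25 CPM (Tie1) and 2.85 ± 2.07 and 3.97 ± 2.80 CPM (Cdh5), so defining endothelial genes did not move together. In MMI16 the means of Tie1 (25.2 ± 13.6 CPM) and Cdh5 (5.35 ± 3.87 CPM) were above those of vehicle. Those of Tek (17.7 ± 8.42 CPM), Kdr (85.8 ± 29.3 CPM) and Pecam1 (51.9 ± 12.2 CPM) were below. In bulk RNA fewer cells of a type and less RNA per cell cannot be told apart.

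As a description only, since these are the values Sox9 and Jag1 were picked on and the markers did not move together, the counts can be set against the marker sum of the same library. For each 100 endothelial marker counts there were 12.8 ± 5.09 Sox9 counts in MMI8, 7.21 ± 4.50 in MMI16, 5.38 ± 2.79 in Ami25 and 3.29 ± 2.15 in Ami50, against 27.3 ± 11.2 in PD16 vehicle. For Jag1 the numbers were 25.1 ± 9.58, 12.3 ± 3.97, 11.9 ± 3.46 and 8.37 ± 4.38 in these treated groups, against 43.3 ± 11.9 in vehicle. The Ami25 and Ami50 libraries stayed below the lowest vehicle library for both genes on this scale (at most 8.96 and 7.41 against 14.8 for Sox9, and at most 17.1 and 18.0 against 26.3 for Jag1), the MMI16 libraries did so for Jag1 (at most 19.1), and the MMI8 libraries overlapped with vehicle. The share of all genes that separate on this scale was not computed, so nothing is read from these separations. The part of endothelial cells in the result was not tested.

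**Figure D4:**
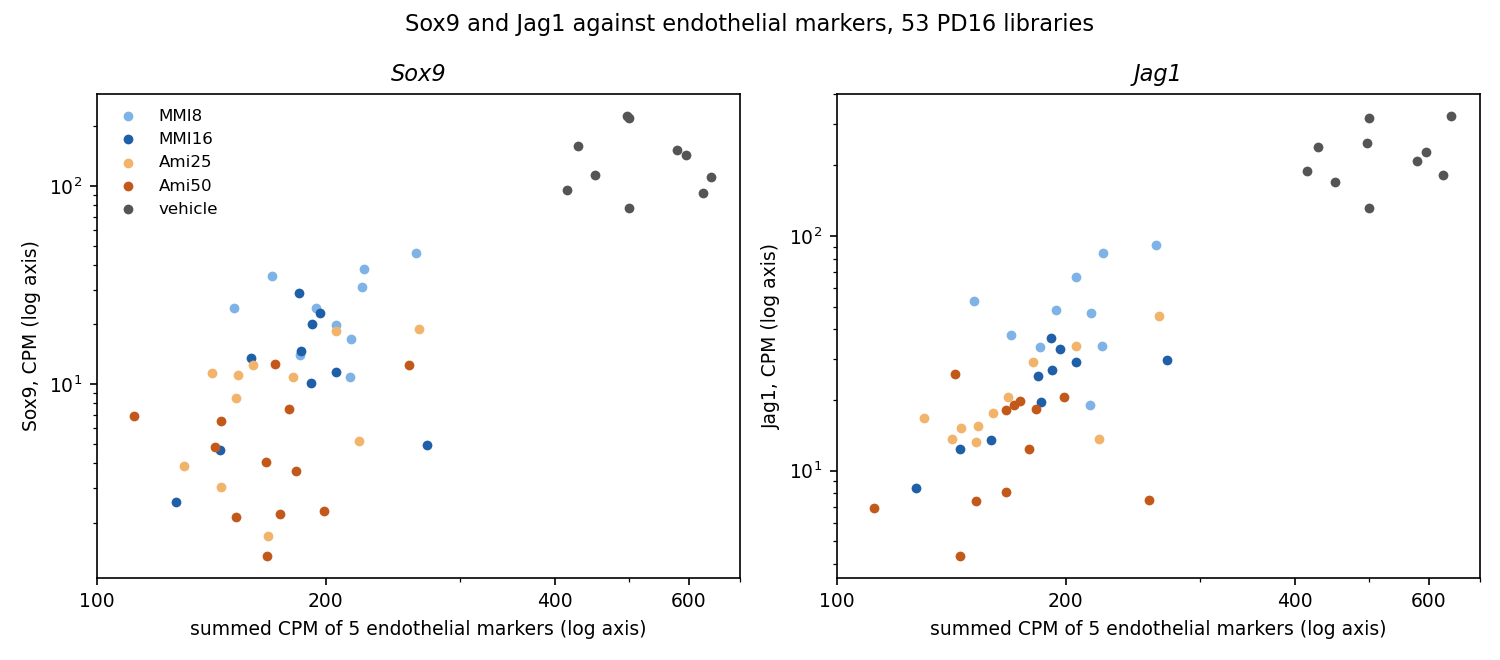
Sox9 (left) and Jag1 (right) in CPM against the summed CPM of 5 endothelial markers, 1 point per PD16 library, both axes logarithmic. The 10 vehicle libraries stand apart at 415 to 642 CPM of the markers, and the treated libraries lie between 112 and 272 CPM.

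Library depth moved with the levels of Sox9 and Jag1. Within groups, a gene's count normally follows the library total, with a median slope of 0.95 (log2 count on log2 total) over 3877 genes at GD21 and 0.90 over 3189 genes in PD16 vehicle. The slope at GD21 was -0.02 for Sox9 and -0.02 for Jag1, lower than for all but 0.258% and 0.284% of genes, and in PD16 vehicle it was 0.41 for Sox9 and 0.36 for Jag1, lower than for all but 6.9% and 5.27%. In the treated PD16 libraries Sox9 and Jag1 averaged 5.74 and 12.1 counts, too few for such a slope to be read. For Notch2 the slope at GD21 was 2.20, on a mean count of 19.7, higher than for 99.4% of the genes with a mean of 20 or more. Its mean counts of 10.1 in PD16 vehicle and 7.74 over all PD16 libraries were likewise too few for a slope to be read. Within these GD21 groups CPM of Sox9 and Jag1 therefore tended to be higher where the total was lower. The median totals at PD16 were 391745.5 counts in MMI8, 487567.5 in MMI16, 551457 in Ami25 and 457019.5 in Ami50, against 627048.5 in vehicle, so each treated group was shallower than vehicle, and with raw counts in place of scaled ones the PD16 log2 fold changes were at least as large, down to -4.94 for Sox9 and -4.28 for Jag1 in Ami50. At GD21 the treated amitrole groups were shallower than vehicle (medians 797417.5 and 864012.5 against 1097632), and with raw counts the GD21 Ami50 fold change of Jag1 was 0.27 in place of 0.70 and that of Sox9 in Ami25 turned to -0.03.

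**Figure D5:**
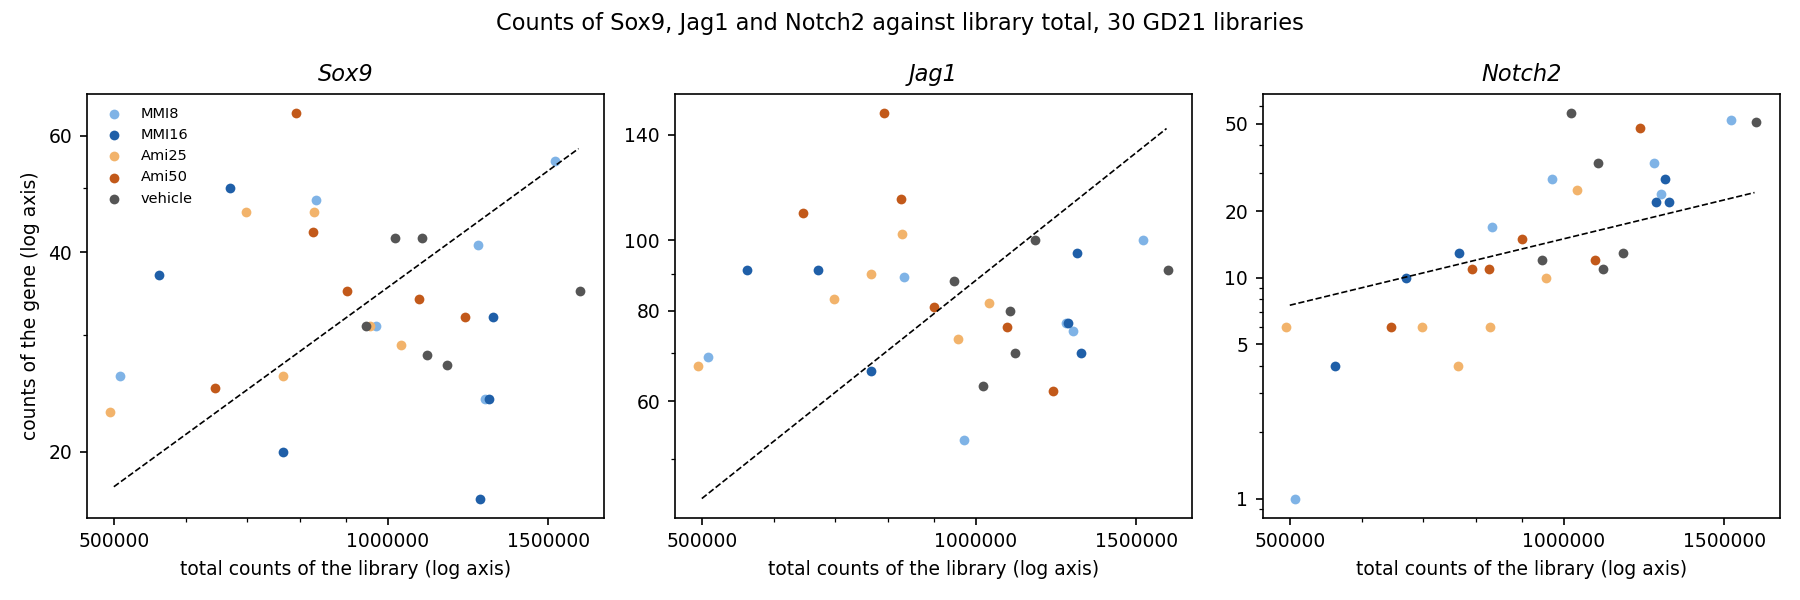
Counts of Sox9, Jag1 and Notch2 against the library total for the 30 GD21 libraries, both axes logarithmic, coloured by group. The dashed line is what proportional counts would give. Sox9 and Jag1 stay level with a slope of -0.02 each, and Notch2 rises with a slope of 2.20.

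Within groups, after subtracting each group's mean, Sox9 and Jag1 varied together in the GD21 libraries that had no part in choosing them (Pearson r = 0.753, Spearman rho = 0.769, n = 30, permutation p = 2e-05 and 1e-05, the second being the smallest that the permutations can give; adjusted over 6 pairs 0.00012 and 6e-05). Without the 2 libraries farthest out in Sox9 r was 0.712, it was 0.776 among the 16 libraries numbered 41 to 56 and 0.737 among the 14 numbered 57 to 90, and it was 0.441 once the library total was regressed out of both. Jag1 and Notch2 ran against each other there (r = -0.678, rho = -0.628, permutation p = 4e-05 and 0.00022, adjusted 0.00012 and 0.00066; -0.566 without the 2 farthest libraries, -0.678 and -0.709 within the 2 number series, -0.386 with the total regressed out). At PD16 the same pair showed no such relation (r = 0.0822, rho = 0.134, n = 53, permutation p = 0.558 and 0.340), and Sox9 with Jag1, given there as a description, had r = 0.347 and rho = 0.328, with r of 0.548, 0.277 and 0.166 in the series numbered 1 to 20, 21 to 40 and 57 to 90. All permutation p-values belong to r and rho before the total was regressed out, and none was computed after it. Since CPM of these genes moved with the total within GD21 groups, the p-values cannot tell shared depth from a relation between the genes. Pairs of other genes were not run for scale.

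The library numbers in the labels fall into 4 series, which the labels do not call batches. Within the PD16 series numbered 1 to 20, 21 to 40 and 57 to 90, mean Sox9 was 5.20, 3.77 and 7.67 CPM in Ami50, against 94.0, 161 and 140 CPM in vehicle, and mean Jag1 was 12.2, 16.4 and 13.5 CPM in Ami50, against 185, 234 and 234 CPM in vehicle. These are the values the 2 genes were picked on, divided by series, and are given as a description.

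Likeness over the 83 libraries was the Pearson r of log2 CPM, ranked for named genes among 6185 others, identifier-only symbols passed over. The genes most like Sox9 were Marcks (r = 0.940), Rbbp4 (0.916), Adnp (0.911), Naa50 (0.910) and Sde2 (0.908). Those most like Jag1 were Tsc22d2 (0.957), Adnp (0.954), Paip1 (0.953), Wtap (0.951) and Abcd3 (0.949). Among all 6286 other genes, identifier-only symbols included, Jag1 was the 7th most like Sox9 (r = 0.906), while Sox9 was the 42nd most like Jag1. Notch2 had r of -0.01 with Sox9 and -0.02 with Jag1. These correlations are taken over the 10 groups and share their differences and library depths. The 83 libraries include the PD16 libraries on which Sox9 and Jag1 were both picked for falls. Nothing is therefore read from the r between these 2 genes, or from its contrast with Notch2. Marcks, a substrate of protein kinase C at the cell membrane and the gene nearest to Sox9, averaged 379 ± 120 CPM in PD16 MMI16 and 137 ± 41.7 in Ami50, against 2588 ± 521 in vehicle. Tsc22d2, nearest to Jag1, averaged 41.3 ± 17.5 CPM in PD16 MMI16 and 23.0 ± 9.99 in Ami50, against 354 ± 81.9 in vehicle. At r of 0.8 or more stood 108 genes (1.72%) for Sox9 and 155 (2.47%) for Jag1. The slopes of these 9 genes on the library total at GD21 lay between -0.01 (Tsc22d2) and 0.48 (Adnp), below the median gene's 0.95.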

How the data were processed

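Raw counts per gene symbol and library were deposited by the authors, per the file headers, for 83 libraries of 10 groups. The submitters' processing notes name BWA 0.7.4.4 and the rn6 build. Counting tool, annotation, strand setting and molecular barcodes: not given in the sources used here. Per the labels' protocols, RNA had an integrity number above 6.8.

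Counts were fitted with edgeR 4.0.16 and limma 3.58.1 under R 4.3.3: filterByExpr by group (minimum count 10), TMM scaling, robust quasi-likelihood fits and F tests, and Benjamini-Hochberg adjustment over all genes tested, called under 0.05. The 5 groups of a stage were fitted together (4906 genes at PD16, 6236 at GD21), and all 10 groups for comparisons across stages (6287). Notch1 and Hes1 failed the filter, so their values come from the same fit with no filter. Slopes used log2 of the count plus 0.5, and intervals are at 95%. The intervals use a normal approximation from the SE, so they can be somewhat narrower than the F test implies. The fit was tested on simulated counts with known changes. Named genes were the 5 members, called genes of the Notch, SOX and glia lists in the upper-dose PD16 comparisons, and the 5 genes most like Sox9 and Jag1, identifier-only symbols passed over. Sox8, Sox10, Col2a1, the low ligands, receptors and targets, Adam17, Hes6, Myc and the endothelial genes were added to these with their values known. The 15 comparisons, members and lists were chosen with earlier results of these data known. Alternatives were DESeq2 1.42.0 (test or size factors), other filters, only the compared libraries, a number-series covariate, and libraries left out. Raw counts with equal library sizes were an alternative chosen after seeing the data. Promoters were credited to RefSeq.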

Additional observations from a re-analysis of the deposited data

Results flagged for a closer look

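Of 40 sets of a gene and a group of 6 or 10 libraries, 6 had 1 library far from the others. The rule flags about 1 in 20 sets if values are normally distributed. Low counts such as those of Hes1 and Notch1 are not, so 6 of 40 is not read as an excess. For Notch2 these were GD21 Ami50 replicate 56 at 39.5 CPM (48 counts; the next library had 16.7 CPM), GD21 Ami25 replicate 81 at 24.2 CPM (25 counts; next 12.1 CPM) and PD16 vehicle replicate 58 at 31.9 CPM (23 counts; next 19.2 CPM). For Notch1 it was GD21 vehicle replicate 62 at 9.81 CPM (10 counts; next 4.53 CPM), which was also the library highest in Notch2 in its group. For Hes1 they were PD16 MMI8 replicate 66 at 8.08 CPM (3 counts; next 2.85 CPM) and GD21 Ami25 replicate 81 at 0.968 CPM, a single count where the other 5 libraries had 0. No library stood apart in this way for Sox9 or Jag1 in these sets. The PD16 Ami25 and Ami50 groups held more than 10 libraries and were not examined.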

How the results depend on the processing

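Leaving out single libraries left 702 of 731 values the same, and the other alternatives left 750 of 782 the same. For tested genes this meant the same direction and call. For Sox9 and Jag1 where untested it meant the same direction and a shift within the spread inside groups. Numbers of genes had to stay within a set ratio, and group means within the SD of the group. The PD16 falls of Sox9 and Jag1 against vehicle kept their direction under every alternative run. Without one library each, the log2 stage difference in vehicle ranged from 0.82 to 1.28 for Notch1 and from -1.0 to -0.49 for Notch2, and ranges that crossed 0 were -0.13 to 0.37 (Sox9, GD21 MMI16), -0.058 to 0.23 (Jag1, GD21 MMI8), and for Notch2 -0.27 to 0.26 (GD21 MMI8), -0.18 to 0.12 (PD16 MMI16), -0.17 to 0.14 (PD16 Ami25), -0.27 to 0.075 (PD16 Ami50), -0.24 to 0.088 (PD16 Ami50 over Ami25) and -0.20 to 0.081 (PD16 Ami50 over MMI16). Notch1 and Hes1 were refitted in this way for the stage comparison only, and the interactions were not run. The Notch2 stage difference lost its call without libraries whose Alb reached 200 CPM (-0.74) and with DESeq2 (-0.82). With no scaling to the total, that of Notch1 did (0.34), those of Sox9 and Jag1 were 1.32 and 0.74, Notch2 in PD16 MMI8 was called (-0.81), and GD21 values turned to -0.088 (Jag1, MMI8), -0.19 and -0.0029 (Sox9 and Jag1, MMI16) and -0.028 (Sox9, Ami25). Other turns of sign were 0.081 for Notch2 in Ami50 over MMI16 without the shallow library, -0.027 for Sox9 in GD21 MMI16 without the Alb libraries, and -0.22 for the Notch2 Ami50 interaction without libraries low in Eif2s3y. Unscaled, genes called numbered 1840 for PD16 MMI8 (410 scaled), 67 for MMI16 over MMI8 (102), 1538 for Ami50 over MMI16 (2331) and 1098 for the Ami50 interaction (2059). For Ami50 over Ami25 they were 1 with no filter, with the 10 CPM filter or with DESeq2, and 11 without libraries low in Eif2s3y, against 0, and for GD21 Ami50 24 with DESeq2 against 0. Notch list calls for PD16 MMI16 were 2, against 1, with no filter, with the 10 CPM filter or without libraries low in Eif2s3y. Unscaled they were 5 for PD16 MMI8 (1 scaled) and 2 for the Ami50 interaction (6 scaled), and for the MMI16 interaction 1, against 2, with no filter, unscaled, with only the compared libraries or with DESeq2. Over the PD16 libraries alone, 2 of the 5 genes most like Sox9 were the same. The cause of these differences was not tested. No paired analysis was possible because the groups share no replicate numbers. At PD16 depth, Hes1 rests on 0 to 8 counts a library and Notch1 on 0 to 12.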

Other observations

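Between vehicle groups of the 2 stages, 18 further genes of the Notch list passed the filter, and 7 were higher and 3 lower at PD16 (edgeR adjusted p under 0.05, where 24.4% of 6287 genes were higher and 22.1% lower). The higher ones included Poglut1, at 45.9 ± 11.0 CPM in PD16 vehicle and 18.8 ± 3.55 CPM in GD21 vehicle (log2 difference 1.13, adjusted p = 2.52e-07), Crebbp, at 269 ± 122 and 152 ± 29.6 CPM (0.68, adjusted p = 0.00323), and Ccnd1, at 87.1 ± 28.4 and 48.5 ± 20.8 CPM (0.70, adjusted p = 0.00120). The lower ones were Aph1b, at 28.7 ± 5.38 and 57.6 ± 10.4 CPM (-1.12, adjusted p = 1.52e-09), Psenen, at 272 ± 47.7 and 400 ± 24.9 CPM (-0.69, adjusted p = 7.73e-10), and Hes6, at 110 ± 45.6 and 184 ± 25.7 CPM (-0.89, adjusted p = 0.000987).

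The cartilage collagen gene Col11a1 was the only cartilage list gene that passed the filter over both stages, at 9.84 ± 6.32 CPM in PD16 vehicle and 1.83 ± 1.16 CPM in GD21 vehicle (log2 difference 2.12, adjusted p = 3.20e-05). In the treated PD16 groups MMI16 and Ami50 Col11a1 was at 11.4 ± 6.06 and 7.17 ± 4.48 CPM. All of these levels are low, and the gene did not pass the filter of the PD16 fit.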
